A study of Homo sapiens with 12 samples.

Results

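The baseline difference between 2 prostate cancer cell lines was taken from the 6 vehicle libraries of the study, 3 of DU-145 cells and 3 of LNCaP-AI cells, out of 12 libraries in all. A gene was a member when 3 or more of these 6 libraries had 10 or more counts of it, which left 15628 of the 58037 genes in the count table. DU-145 is an androgen-insensitive prostate cancer line, and LNCaP-AI was selected from C4-2B, a castration-resistant derivative of LNCaP, by growth for months without androgens. Both lines carried a doxycycline (DOX)-inducible shRNA against MUC1 that was left uninduced in these libraries, and received vehicle for 7 days. The labels give androgen-depleted medium (charcoal-stripped serum, no phenol red) for both lines, whereas the study's methods give it for LNCaP-AI and ordinary serum for DU-145, so a difference of medium cannot be told apart from the difference between the lines. The sample labels name this group control shRNA, whereas the study describes vehicle treatment of the tet-MUC1shRNA cells. RNA came from cultures in triplicate, so p-values below measure the spread between these cultures of 1 derivative per line.

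Prostate luminal epithelium depends on androgens, which drive secretory genes such as the kallikreins. Luminal cells hold together by E-cadherin junctions, whereas carcinoma cells that lose these junctions often express vimentin and the repressor ZEB1. DU-145 has long served as a model without this androgen response, and the LNCaP lineage as a model with it.

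Total counts were 12785637, 10423437 and 12436016 in DU-145 vehicle 1, 2 and 3, and 20758964, 17437843 and 26961777 in LNCaP-AI vehicle 1, 2 and 3. At these depths 3 counts, taken as the floor for counting error only, correspond to at most 0.313 CPM (counts scaled to library size) in DU-145 and 0.16 CPM in LNCaP-AI cells. Principal component 1 took 86.3% of the variance and separated the lines. Component 2 took 10.5% and set LNCaP-AI vehicle 1 apart from vehicle 2 and 3. The correlation of log2 CPM across genes was 0.994 between LNCaP-AI 2 and 3, but 0.933 and 0.932 between LNCaP-AI 1 and these libraries. It was 0.991 to 0.992 among the DU-145 libraries. On the log2(CPM + 1) scale, 912 of the 15628 genes tested were at least 2-fold lower in LNCaP-AI 1 than the mean of LNCaP-AI 2 and 3. By the same measure 2 genes were at least 2-fold higher. The gene tests of the vehicle comparison were therefore also made without LNCaP-AI 1, and, as a choice made after seeing the data, with LNCaP-AI 1 as the only LNCaP-AI library.

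Some of the genes that set LNCaP-AI 1 apart were near 0 in that library and high in the other LNCaP-AI libraries. KRT6A, a keratin of squamous and activated epithelium, had 2, 1991 and 3593 counts in LNCaP-AI 1, 2 and 3 and 0 counts in each DU-145 library. KRT5, the basal cell keratin, had 1, 789 and 1434 counts and again 0 counts in DU-145. CDH2, which encodes N-cadherin, had 0, 325 and 473 counts against 0 in DU-145. KRT6A, KRT5 and CDH2 missed the minimum of 10 counts in 3 libraries, so they are not among the genes counted above as lower. For other genes DU-145 was high as well. CD44, a hyaluronan receptor of basal cells, had 0, 1483 and 2405 counts in LNCaP-AI and 2851, 1892 and 2598 counts in DU-145. For 197 genes, DU-145 had at least 10 CPM and LNCaP-AI 1 had at most 3 counts. Their level in LNCaP-AI 2 and 3 was a median of 8.72% of that in DU-145, with quartiles of 0.667% and 30.8%. Genes that set LNCaP-AI 1 apart also divided the DOX libraries of LNCaP-AI. KRT6A had 2457, 0 and 0 counts and KRT81 had 14408, 1 and 1 counts in DOX 1, 2 and 3. KLK2 in these DOX libraries had 7529, 6969 and 6932 counts, so it did not divide them. MUC1 had 8, 6 and 3 counts there, too few to show whether it did. The libraries were kept in their labelled groups, so each LNCaP-AI mean covers libraries of both kinds, and whether cultures or libraries were exchanged or mixed was not tested.

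MUC1, which encodes the transmembrane mucin targeted by the shRNA, lies on chromosome 1 from 155185824 to 155192916 of GRCh38. It had 74, 60 and 59 counts in the DU-145 libraries and 36, 25 and 52 counts in the LNCaP-AI libraries. This was 5.85 ± 0.636 CPM (SD, n = 3) in DU-145 and 1.58 ± 0.240 CPM (SD, n = 3) in LNCaP-AI cells, with no overlap. The log2 fold change, given throughout as DU-145 over LNCaP-AI, was 1.87 (SE 0.213, adjusted p = 0.000239, from the quasi-likelihood test of edgeR with Benjamini-Hochberg adjustment).

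The lines differed in most genes tested. At an adjusted p under 0.05, 4718 genes (30.2%) were higher in DU-145, 5462 (35.0%) were higher in LNCaP-AI cells and 5448 did not pass. With a difference of at least 4-fold added, the counts were 1184 (7.58%) and 1844 (11.8%). The libraries of the lines did not overlap for 11444 genes (73.2%), so an absence of overlap is the usual case in this comparison. The median log2 fold change over all genes tested was -0.06. Without LNCaP-AI 1, 10098 of the 10180 called genes were called in the same direction, none of the 10180 changed sign, and 1482 further genes were called. The lists of genes described below were written from memory and carry no test of their own. Their shares are to be read beside 30.2% and 35.0%, and their medians beside -0.06.

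**Figure D1:**
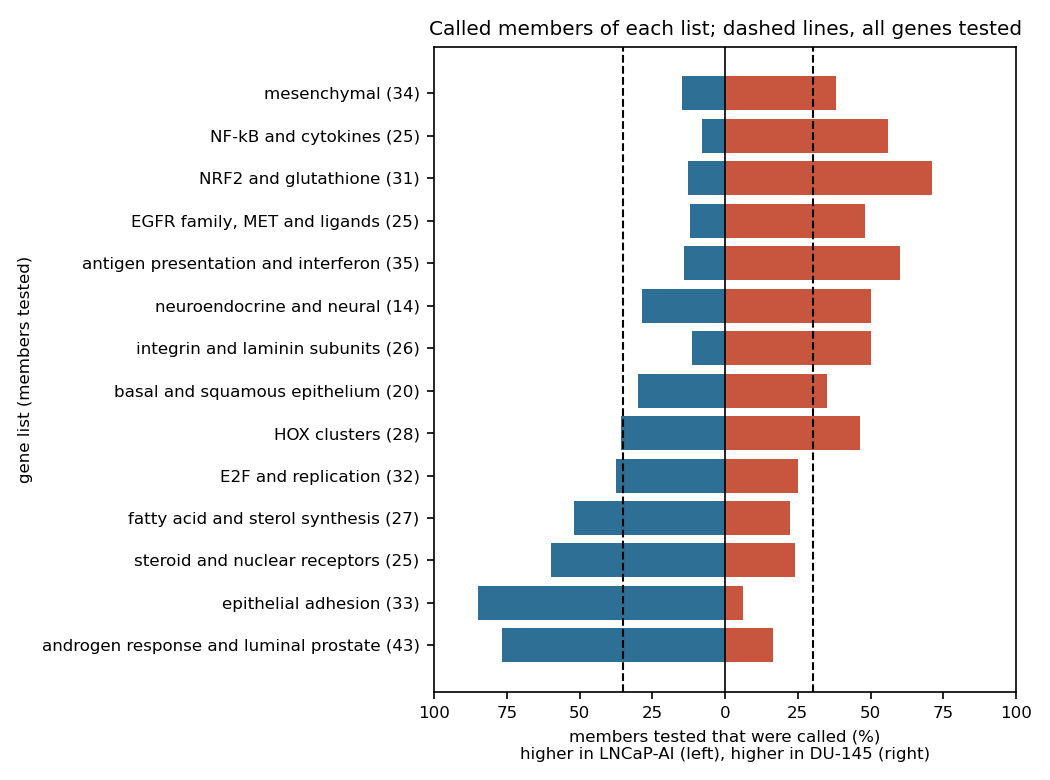
Percentage of the tested members of each gene list that were called higher in LNCaP-AI (left, blue) or higher in DU-145 (right, red), with the number tested in parentheses. Dashed lines mark the same percentages over all 15628 genes, 35.0% and 30.2%. The androgen response and epithelial adhesion lists lie farthest to the left, and the NRF2 list has the longest bar to the right.

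The secretory program of luminal cells separated the lines as on and off. KLK3, which encodes prostate-specific antigen, had 3920, 2636 and 3804 counts against 0 in each DU-145 library. This was at least 478-fold higher than 3 counts in the shallowest DU-145 library, the floor used for every such bound. KLK2, a related serine protease, had 2090, 1478 and 2082 counts against 0. TMPRSS2, the androgen-driven protease gene, had 1261, 711 and 1034 counts against 0. FOLH1, which encodes prostate-specific membrane antigen, had 18896, 12428 and 15059 counts against 0, at least 2166-fold higher. HOXB13, a homeobox factor of the prostate, had 8525, 4263 and 6929 counts against 0. LNCaP-AI 1 carried these transcripts as LNCaP-AI 2 and 3 did, and no DU-145 library had a read of them. In such bulk samples, fewer cells of a type and less RNA per cell cannot be told apart.

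Over the list of androgen response and luminal genes, 33 of 43 tested members were higher in LNCaP-AI (76.7%) and 7 were higher in DU-145 (16.3%), with a median log2 fold change of -2.88. Of the 43, 16 were detected in LNCaP-AI only, that is with at most 3 counts in each DU-145 library and at least 10 in each LNCaP-AI library. FOXA1, a pioneer factor that opens chromatin, was not off in DU-145. It had 1136, 741 and 1112 counts there and 9017, 5198 and 7603 in LNCaP-AI (log2 fold change -1.82, SE 0.186, adjusted p = 0.00015). STEAP2, a metalloreductase of prostate cells, had 246, 171 and 279 counts in DU-145 and 11493, 6324 and 9467 in LNCaP-AI (log2 fold change -4.24). HERC3, which encodes a ubiquitin ligase, had 60, 42 and 70 counts against 542, 453 and 742 (log2 fold change -2.26, SE 0.158, adjusted p = 3.06e-05). The members that were higher in DU-145 included RAB3B, which encodes a secretory GTPase, with 3249, 2462 and 2897 counts against 1710, 849 and 1389 (log2 fold change 2.19, SE 0.205, adjusted p = 9.87e-05). ABCC4, a cyclic nucleotide and drug exporter, also rose toward DU-145 (log2 fold change 1.47, SE 0.0897, adjusted p = 1.89e-05). FKBP5, a chaperone gene that responds to androgens and to glucocorticoids, had 3521, 2675 and 3248 counts against 2849, 3600 and 5212, or 285 ± 7.84 CPM against 167 ± 34.6 CPM (SD, n = 3 per line; log2 fold change 0.77, adjusted p = 0.00376 in edgeR). KRT8, a keratin of simple epithelium, was 455 ± 26.1 CPM in DU-145 and 296 ± 65.2 CPM in LNCaP-AI (log2 fold change 0.62, adjusted p = 0.0127 in edgeR), and this call was lost without DU-145 1 (adjusted p = 0.0533) or DU-145 2 (adjusted p = 0.0549).

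The KLK3 start site is shown because this gene is the clinical readout of the androgen response and had no read in DU-145. The 250 bases before it are given from RefSeq on GRCh38.p14, chr19:50854665-50854914 on the plus strand, 5′ to 3′, with capitals marking the AGAACA half-site of the androgen response element.
KLK3: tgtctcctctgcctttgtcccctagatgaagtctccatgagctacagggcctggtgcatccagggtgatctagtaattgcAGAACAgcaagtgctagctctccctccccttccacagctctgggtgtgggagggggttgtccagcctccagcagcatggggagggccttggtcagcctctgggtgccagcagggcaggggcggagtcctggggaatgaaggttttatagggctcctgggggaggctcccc
The half-site begins at position -170 from the start site. AGAACA on either strand (AGAACA or TGTTCT) was present in 4056 of the 27305 promoters of 300 bases in the table, or 14.9%, and in 986 of the 11387 promoters matched to genes tested, or 8.66%. Of the 46 genes of the androgen response and luminal list, 32 matched a promoter, and 5 of these held it, or 15.6%.

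Other steroid and nuclear receptors divided between the lines. Of 25 tested, 15 were higher in LNCaP-AI (60.0%) and 6 in DU-145 (24.0%), with a median log2 fold change of -0.84. NR3C1, which encodes the glucocorticoid receptor, had 3416, 2282 and 3167 counts in DU-145 and 47, 829 and 1261 in LNCaP-AI 1, 2 and 3 (log2 fold change 3.14, SE 0.890, adjusted p = 0.0167), or 2.59 without LNCaP-AI 1. PGR, the progesterone receptor gene, had 2, 3 and 4 counts in DU-145 and 435, 222 and 290 in LNCaP-AI (log2 fold change -5.62, SE 0.413, adjusted p = 3.62e-05). THRB, a thyroid hormone receptor gene, had 48, 39 and 33 counts against 1855, 1024 and 1641 (log2 fold change -4.16, SE 0.233, adjusted p = 1.3e-05). NR4A3, an orphan receptor gene of immediate early type, had 189, 138 and 168 counts against 8, 29 and 42 (log2 fold change 3.72, SE 0.452, adjusted p = 0.000329).

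**Figure D2:**
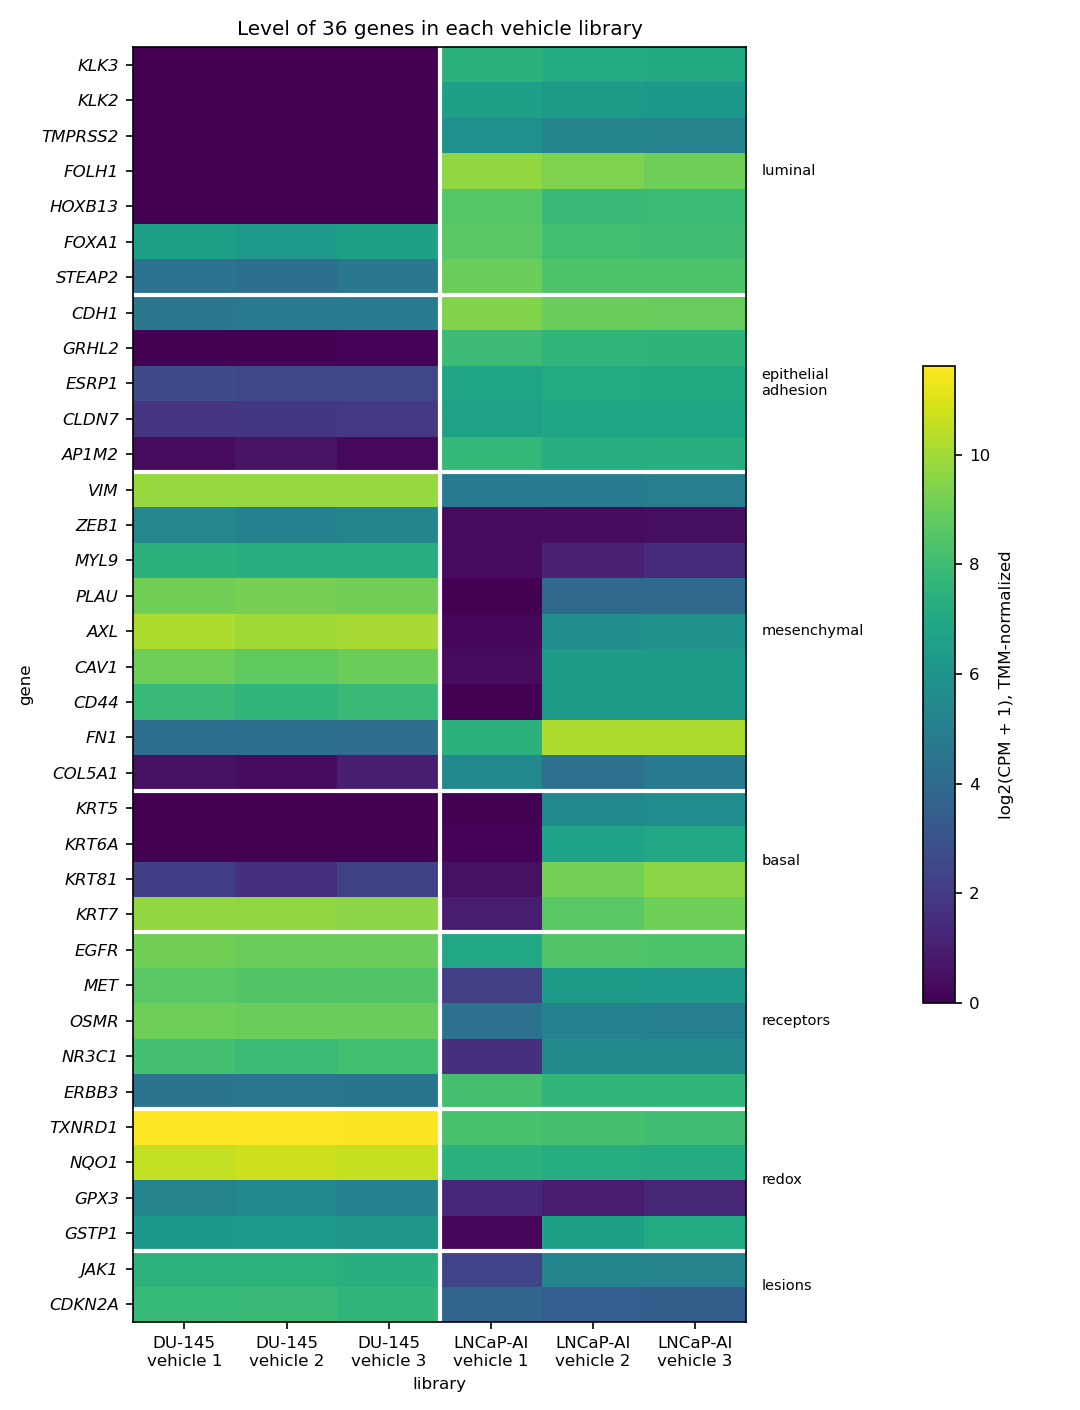
Level of 36 genes (rows) in each of the 6 vehicle libraries (columns) as log2(CPM + 1), from dark (0) to yellow (high), with white lines between the lines and between groups of genes. The luminal and epithelial adhesion genes differ by line in all libraries, whereas LNCaP-AI vehicle 1 is dark for CD44, KRT5, KRT6A, KRT81 and GSTP1, unlike vehicle 2 and 3.

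The epithelial adhesion program was lower in DU-145 almost throughout. Of 33 tested members, 28 were higher in LNCaP-AI (84.8%) and 2 in DU-145, with a median log2 fold change of -2.37. CDH1, which encodes E-cadherin, had 283, 246 and 293 counts in DU-145 and 15236, 9250 and 14029 in LNCaP-AI, or 24.9 ± 1.12 CPM against 555 ± 110 CPM (SD, n = 3 per line; log2 fold change -4.48, SE 0.168, adjusted p = 3.54e-06 in edgeR). GRHL2, a transcription factor that maintains epithelial genes, had 0, 0 and 1 count in DU-145 and 5589, 3621 and 5461 in LNCaP-AI (adjusted p = 2.48e-06). EHF, an ETS factor of epithelium, had 0 counts in each DU-145 library and 7114, 3863 and 5873 in LNCaP-AI. ESRP1, an epithelial splicing regulator, had 66, 43 and 53 counts against 2642, 2533 and 3799 (log2 fold change -4.72, SE 0.129, adjusted p = 2.08e-06). CLDN7, a tight junction claudin gene, had 30, 26 and 32 counts against 2251, 2113 and 3226 (log2 fold change -5.35, SE 0.117, adjusted p = 1.76e-06). AP1M2, which encodes the epithelial adaptor subunit of basolateral sorting, had 3, 5 and 2 counts against 4793, 2858 and 4576. CD24, a surface glycoprotein gene, went the other way, with 4168, 2561 and 4247 counts in DU-145 and 216, 690 and 973 in LNCaP-AI (log2 fold change 3.61, SE 0.482, adjusted p = 0.000511). EPCAM, an adhesion molecule gene, had 1270, 958 and 1244 counts against 2359, 4433 and 6145 (log2 fold change -0.83, SE 0.274, adjusted p = 0.0314). Leaving out any 1 library other than LNCaP-AI 1 ended the EPCAM call (adjusted p from 0.0913 to 0.109).

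Of the 34 mesenchymal genes tested, 13 were higher in DU-145 (38.2%, against 30.2% of all genes tested), 5 were higher in LNCaP-AI and 16 did not pass, with a median log2 fold change of 2.04. Without LNCaP-AI 1, 23 were higher in DU-145 and 9 in LNCaP-AI, with a median of 1.46. The summed level of the list was 8510 to 9030 CPM in the DU-145 libraries and 896 to 3890 CPM in the LNCaP-AI libraries. VIM, which encodes vimentin, did not depend on that library. It had 11017, 8363 and 10511 counts in DU-145 and 605, 509 and 874 in LNCaP-AI 1, 2 and 3, or 901 ± 25.1 CPM against 28.2 ± 1.92 CPM (SD, n = 3 per line; log2 fold change 5.0, SE 0.104, adjusted p = 1.76e-06 in edgeR). ZEB1, a repressor of E-cadherin, had 485, 319 and 458 counts against 6, 6 and 10 (log2 fold change 6.88, SE 0.187, adjusted p = 2.08e-06). MYL9, a contractile myosin light chain gene, had 2142, 1465 and 1737 counts against 6, 20 and 53 (log2 fold change 7.19, SE 0.514, adjusted p = 3.27e-05). For these genes every LNCaP-AI library was low.

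AXL, CAV1 and CD44 were lowest in LNCaP-AI 1. AXL, a receptor tyrosine kinase gene, had 14199, 9677 and 12593 counts in DU-145 and 3, 978 and 1694 in LNCaP-AI 1, 2 and 3 (log2 fold change 4.88, SE 1.35, adjusted p = 0.0152; 4.30 without LNCaP-AI 1). CAV1, which encodes caveolin-1, had 6338, 4273 and 5948 counts against 6, 1617 and 2412. Its log2 fold change of 3.13 did not pass (SE 1.28, adjusted p = 0.0641) although the libraries of the lines did not overlap. It passed without LNCaP-AI 1 at 2.54 (adjusted p = 1.13e-17) and against LNCaP-AI 1 alone at 10.8 (adjusted p = 1.06e-13). CD44 likewise did not pass at 2.02 (adjusted p = 0.21), and passed at 1.44 without LNCaP-AI 1 (adjusted p = 9.04e-13). FN1, which encodes the matrix protein fibronectin, was higher in LNCaP-AI, with 206, 176 and 195 counts in DU-145 and 3963, 21795 and 33549 in LNCaP-AI (log2 fold change -5.58, SE 0.725, adjusted p = 0.000453). COL5A1, a fibrillar collagen gene, had 5, 3 and 11 counts against 937, 358 and 765 (log2 fold change -5.66, SE 0.466, adjusted p = 5.66e-05). COL1A1 and COL6A1, the other collagen genes of the list that passed, were also higher in LNCaP-AI, with log2 fold changes of -2.97 and -1.47.

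**Figure D3:**
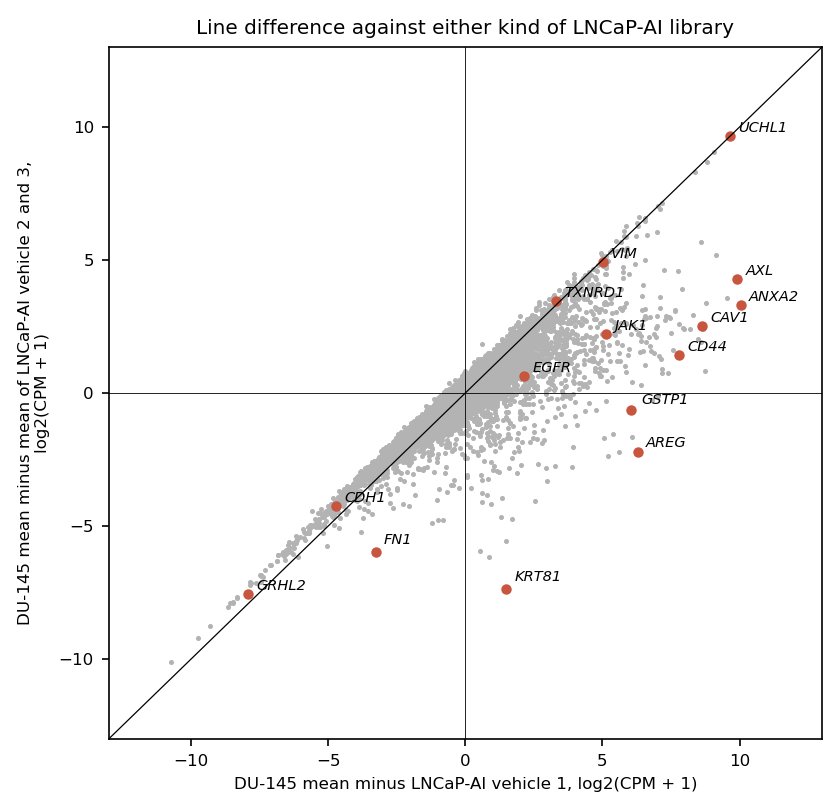
Each point is a gene, with the DU-145 mean minus LNCaP-AI vehicle 1 on the horizontal axis and the DU-145 mean minus the mean of LNCaP-AI vehicle 2 and 3 on the vertical axis, both as log2(CPM + 1). GRHL2, CDH1, VIM, TXNRD1 and UCHL1 lie near the diagonal, whereas ANXA2, CD44, AREG, GSTP1 and KRT81 lie far below it.

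Of the 20 basal and squamous genes tested, 7 were higher in DU-145 and 6 in LNCaP-AI, with a median log2 fold change of 0.83, and 10 further members were not tested. Without LNCaP-AI 1, 10 were higher in DU-145 and 9 in LNCaP-AI, with a median of 0.51. Genes off in DU-145 and near 0 in LNCaP-AI 1, such as KRT5 and KRT6A above, missed the minimum of 10 counts in 3 libraries. The split and the median therefore leave such genes out. TP63, the factor that defines basal cells, had 0, 1 and 2 counts in DU-145 and 2, 19 and 25 in LNCaP-AI 1, 2 and 3. KRT81, a hair type keratin gene, had 41, 20 and 45 counts in DU-145 and 10, 11006 and 22268 in LNCaP-AI (log2 fold change -7.16, SE 1.98, adjusted p = 0.015). Against LNCaP-AI 1 alone its log2 fold change was 2.80 in the opposite direction (adjusted p = 9.51e-05), and without DU-145 1, 2 or 3 the call was lost (adjusted p from 0.059 to 0.0666). DST, which encodes a linker of hemidesmosomes, differed by line in every library, with 10113, 8234 and 8861 counts against 936, 1067 and 1539 (log2 fold change 4.02, SE 0.146, adjusted p = 3.35e-06). LAMA3, a laminin chain gene of hemidesmosomes, had 737, 666 and 774 counts against 4958, 9062 and 13738 (log2 fold change -2.58, SE 0.294, adjusted p = 0.000243).

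Integrin and laminin genes were higher in DU-145 in 13 of 26 tested and in LNCaP-AI in 3, with a median log2 fold change of 0.83. ITGB1, the common beta chain of matrix-binding integrins, had 17187, 12442 and 15143 counts in DU-145 and 6465, 7849 and 10735 in LNCaP-AI (log2 fold change 1.90, SE 0.148, adjusted p = 4.56e-05). LAMA1, a laminin alpha chain gene of early basement membranes, had 951, 754 and 825 counts against 15, 15 and 29 (log2 fold change 6.50, SE 0.169, adjusted p = 2.05e-06). ITGB2, the leukocyte integrin beta chain gene, had 273, 220 and 242 counts against 53, 29 and 52 (log2 fold change 3.53, SE 0.196, adjusted p = 1.26e-05). Of 15 blood and endothelial markers, 14 were under the count minimum. PTPRC, the pan-leukocyte marker, had 2 counts in LNCaP-AI 3 and 0 elsewhere, and CD14, a monocyte marker, had 4, 2 and 8 counts in DU-145 and 1, 16 and 39 in LNCaP-AI. VWF, an endothelial gene, was the exception with 1, 1 and 0 counts in DU-145 and 115, 52 and 88 in LNCaP-AI.

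Growth factor signalling genes were higher in DU-145 in 12 of 25 tested (48.0%) and in LNCaP-AI in 3. Without LNCaP-AI 1, 16 were higher in DU-145 and 7 in LNCaP-AI. EGFR, the epidermal growth factor receptor gene, had 6809, 4917 and 5940 counts in DU-145 and 2651, 6542 and 9792 in LNCaP-AI 1, 2 and 3, or 532 ± 31.2 CPM against 270 ± 131 CPM (SD, n = 3 per line; log2 fold change 0.98, SE 0.368, adjusted p = 0.0483 in edgeR). The EGFR call was lost without DU-145 1, 2 or 3 or LNCaP-AI 3 (adjusted p from 0.0565 to 0.129). It was also lost with DESeq2, upper quartile scaling, a minimum of 1 CPM, all 12 libraries in the fit or a replicate block (adjusted p from 0.0516 to 0.123). ERBB3, a partner receptor that binds neuregulins, went the other way in every library, with 250, 214 and 256 counts against 6444, 3755 and 5771 (log2 fold change -3.40, SE 0.171, adjusted p = 9.42e-06). MET, the hepatocyte growth factor receptor gene, had 4790, 3473 and 4135 counts against 81, 1483 and 2128 (log2 fold change 2.84, SE 0.897, adjusted p = 0.0259). The MET call was lost without DU-145 1, 2 or 3 or LNCaP-AI 3 (adjusted p from 0.056 to 0.0657).

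Among the ligands, HBEGF, which encodes a heparin-binding ligand of EGFR, had 542, 472 and 572 counts in DU-145 and 93, 86 and 138 in LNCaP-AI (log2 fold change 3.41, SE 0.117, adjusted p = 3.06e-06). TGFA had 1381, 1116 and 1422 counts against 254, 568 and 872 (log2 fold change 2.30, SE 0.349, adjusted p = 0.000956). AREG, which encodes amphiregulin, had 1317, 1155 and 1355 counts against 11, 9377 and 16456 and did not pass (log2 fold change -1.63, SE 1.45, adjusted p = 0.349). AREG passed at -2.21 without LNCaP-AI 1 (adjusted p = 1.8e-17) and, in the opposite direction, at 7.85 against LNCaP-AI 1 alone (adjusted p = 3.03e-13). NRG2 had 67, 58 and 57 counts in DU-145 and 1, 2 and 2 in LNCaP-AI. NRG3 had 0 in DU-145 and 76, 42 and 77 in LNCaP-AI, so these neuregulin genes differed in opposite directions. Both were low, at a mean of 5.53 CPM for NRG2 in DU-145 and 2.77 CPM for NRG3 in LNCaP-AI. ERRFI1, a feedback inhibitor of EGFR, was higher in DU-145 (log2 fold change 2.59, SE 0.410, adjusted p = 0.00117), and LRIG1, another inhibitor, was lower (log2 fold change -1.42, SE 0.212, adjusted p = 0.000877).

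NF-kB and cytokine genes were higher in DU-145 in 14 of 25 tested (56.0%) and in LNCaP-AI in 2, with a median log2 fold change of 2.04. Without LNCaP-AI 1, 17 were higher in DU-145 and 4 in LNCaP-AI. OSMR, the oncostatin M receptor gene, had 6396, 4959 and 5819 counts in DU-145 and 437, 632 and 914 in LNCaP-AI (log2 fold change 4.19, SE 0.220, adjusted p = 1.06e-05). LIF, a cytokine of the interleukin-6 family, had 773, 636 and 820 counts against 159, 169 and 265 (log2 fold change 2.99, SE 0.133, adjusted p = 6.44e-06). ICAM1, an adhesion molecule gene induced by NF-kB, had 1438, 1154 and 1235 counts against 305, 223 and 395 (log2 fold change 3.14, SE 0.109, adjusted p = 3.12e-06). CXCL8, the interleukin-8 gene, had 574, 541 and 714 counts against 0, 571 and 661 and did not pass (log2 fold change 1.64, adjusted p = 0.238), but passed without LNCaP-AI 1 (1.06, adjusted p = 2.79e-08). CXCL1, a related chemokine gene, had 23, 17 and 39 counts against 0, 1726 and 2313 (log2 fold change -4.60, SE 1.62, adjusted p = 0.0392). The CXCL1 call was lost without any 1 library other than LNCaP-AI 1 (adjusted p from 0.0934 to 0.128), and against LNCaP-AI 1 alone the sign was opposite (8.05).

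Antigen presentation and interferon genes were higher in DU-145 in 21 of 35 tested (60.0%) and in LNCaP-AI in 5, with a median log2 fold change of 0.98. B2M, the invariant chain of class I molecules, had 1447, 1496 and 1556 counts in DU-145 and 873, 856 and 1222 in LNCaP-AI (log2 fold change 1.69, SE 0.124, adjusted p = 3.58e-05). IFIT3, an interferon-induced gene, had 260, 209 and 252 counts against 37, 31 and 64 (log2 fold change 3.55, SE 0.179, adjusted p = 9.42e-06). IFIT2, from the same family, had 152, 130 and 157 counts against 46, 37 and 55 (log2 fold change 2.74, SE 0.158, adjusted p = 1.47e-05). IFNAR2, a chain of the type I interferon receptor, was also higher in DU-145 (log2 fold change 1.92, SE 0.136, adjusted p = 3.19e-05). HLA-C went the other way, with 0, 7 and 16 counts against 322, 179 and 299, but this locus is polymorphic and shares sequence with other class I genes, so its counts are uncertain.

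The NRF2 and glutathione list had the largest share of members higher in DU-145 of the lists drawn, 22 of 31 tested (71.0%), with 4 higher in LNCaP-AI and a median log2 fold change of 1.44. NRF2 (NFE2L2) is the transcription factor that induces antioxidant enzymes, and KEAP1 is the adaptor that targets it for degradation. TXNRD1, which encodes thioredoxin reductase, had 37509, 30236 and 34891 counts in DU-145 and 7058, 5681 and 7649 in LNCaP-AI (log2 fold change 3.39, SE 0.105, adjusted p = 2.48e-06). NQO1, a quinone reductase gene, had 18286, 16341 and 17764 counts against 3836, 2696 and 3994 (log2 fold change 3.39, SE 0.121, adjusted p = 3.28e-06). GCLC, the catalytic subunit gene of glutathione synthesis, had 4419, 3383 and 4429 counts against 1905, 1469 and 2052 (log2 fold change 2.23, SE 0.101, adjusted p = 6.71e-06). GPX3, a secreted glutathione peroxidase gene, had 430, 397 and 384 counts against 32, 16 and 40 (log2 fold change 4.88, SE 0.223, adjusted p = 6.96e-06). NFE2L2 itself was higher in DU-145 (log2 fold change 0.82, SE 0.122, adjusted p = 0.000892), and KEAP1 was lower, with 353, 353 and 367 counts against 2355, 1815 and 2725 (log2 fold change -1.60, SE 0.113, adjusted p = 3.15e-05). These differences held with similar values without LNCaP-AI 1, at 3.45 for TXNRD1, 3.49 for NQO1 and -1.56 for KEAP1.

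GSTP1, a glutathione transferase gene whose promoter is known to be methylated in most prostate cancers, was the member most divided among the LNCaP-AI libraries. It had 881, 728 and 810 counts in DU-145 and 3, 1813 and 3899 in LNCaP-AI 1, 2 and 3. The log2 fold change was -0.08 (SE 1.27, adjusted p = 0.958) with all libraries, -0.67 without LNCaP-AI 1 (adjusted p = 5.86e-06) and 9.0 against LNCaP-AI 1 alone (adjusted p = 5.05e-13). The DOX libraries of LNCaP-AI had 2607, 0 and 0 counts. Methylation was not measured in these data. The 250 bases before its start site are shown for their density of CG, from RefSeq on GRCh38.p14, chr11:67583562-67583811 on the plus strand, 5′ to 3′, with each CG in capitals.
GSTP1: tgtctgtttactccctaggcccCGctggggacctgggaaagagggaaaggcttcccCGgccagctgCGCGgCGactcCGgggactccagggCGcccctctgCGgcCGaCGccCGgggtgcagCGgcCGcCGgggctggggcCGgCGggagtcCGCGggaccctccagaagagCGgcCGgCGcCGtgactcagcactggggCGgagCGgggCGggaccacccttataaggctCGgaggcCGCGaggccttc
This window held 28 CG. Over windows of 300 bases, the median was 14 CG in all 27305 promoters of the table and 26 in the 11387 matched to genes tested. An AP-1 site (TGACTCA or TGAGTCA on the strand given, the same site read on either strand) began at position -66, and 4.92% of all promoters held such a site.

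Fatty acid and sterol synthesis genes were higher in LNCaP-AI in 14 of 27 tested (51.9%) and in DU-145 in 6, with a median log2 fold change of -0.41. SREBF1, the transcription factor gene of lipogenesis, had 358, 293 and 310 counts in DU-145 and 8940, 5006 and 9141 in LNCaP-AI (log2 fold change -3.50, SE 0.169, adjusted p = 8.24e-06). FASN, fatty acid synthase, had 3218, 2585 and 2661 counts against 32336, 19888 and 40468 (log2 fold change -2.35, SE 0.148, adjusted p = 2.04e-05). INSIG1, which retains sterol-regulated factors in the endoplasmic reticulum, had 761, 510 and 751 counts against 9064, 6020 and 8065 (log2 fold change -2.47, SE 0.163, adjusted p = 2.43e-05). HMGCS1 and FDPS, enzymes of the mevalonate pathway, were higher in DU-145, by 0.47 (adjusted p = 0.00993) and 0.44 (adjusted p = 0.00444) on the log2 scale.

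Genes known to carry lesions in DU-145 or LNCaP were also compared. Their counts do not show whether a lesion is present, so they are no check of identity. LNCaP is known to lack functional JAK1, and DU-145 to carry altered RB1, CDKN2A, BAX and STK11. JAK1, an interferon and cytokine receptor kinase gene on chromosome 1, had 2182, 1736 and 1845 counts in DU-145 and 89, 696 and 1031 in LNCaP-AI 1, 2 and 3 (log2 fold change 2.76, SE 0.696, adjusted p = 0.0101; 2.26 without LNCaP-AI 1). LNCaP-AI 1 was far below LNCaP-AI 2 and 3, as were DOX 2 and 3 against DOX 1, with 805, 84 and 74 counts of JAK1 in DOX 1, 2 and 3. ETV1, an ETS factor gene rearranged in LNCaP, had 98 counts in LNCaP-AI 2 and more in LNCaP-AI 3, but 0 in LNCaP-AI 1 and in each DU-145 library.

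CDKN2A, which encodes the p16 inhibitor of CDK4, had 2641, 2234 and 2305 counts in DU-145 and 288, 192 and 283 in LNCaP-AI (log2 fold change 4.31, SE 0.144, adjusted p = 2.94e-06). RB1 had 1462, 958 and 1426 counts against 2303, 1771 and 2571 and did not pass (log2 fold change 0.27, SE 0.114, adjusted p = 0.0729). It passed without LNCaP-AI 1 (adjusted p = 0.00553) or without DU-145 2 (adjusted p = 0.018). RB1 also passed with DESeq2 (adjusted p = 0.0487) and with voom and sample weights (adjusted p = 0.0107). STK11 was higher in LNCaP-AI (log2 fold change -1.02, adjusted p = 0.00329), and BAX did not pass (-0.06, adjusted p = 0.757).

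GDF15, a secreted stress factor gene, had 0, 1 and 2 counts in DU-145 and 567, 392 and 452 in LNCaP-AI. TP53INP1, a stress-response gene, had 84, 74 and 99 counts against 3222, 1620 and 2665 (log2 fold change -3.79, SE 0.231, adjusted p = 1.88e-05). CDKN1A, which encodes the p21 inhibitor of cyclin-dependent kinases, had 576, 400 and 500 counts against 1595, 1169 and 2134 (log2 fold change -0.64, SE 0.108, adjusted p = 0.0015). MDM2, a ubiquitin ligase gene, differed by -0.93 (SE 0.135, adjusted p = 0.00076). TP53I3, an oxidoreductase gene, was higher in DU-145 (2.27, SE 0.180, adjusted p = 4.95e-05). E2F and replication genes had no common direction, with 8 of 32 higher in DU-145, 12 higher in LNCaP-AI and a median log2 fold change of -0.02. Among them MCM7 and MCM2, helicase subunit genes, were lower in DU-145 (log2 fold changes -0.89 and -0.87), and TYMS and RRM2, nucleotide synthesis genes, were higher (1.20 and 0.79).

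Neuroendocrine genes that mark small cell prostate cancer were mostly at the floor in both lines. Of 36 members, 22 were under the count minimum. MYCN had 0 counts in each library, and SOX2 had 1 count in DU-145 3 and 0 elsewhere. POU3F2, the neural factor BRN2 that the study follows, had 5, 1 and 4 counts in DU-145 and 12, 4 and 3 in LNCaP-AI, which is too few to compare. CHGA, the chromogranin A gene, had 0 counts in each library.

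The neural genes that were expressed differed between the lines rather than moving together. UCHL1, a neuronal deubiquitinase gene, had 9612, 9374 and 9875 counts in DU-145 and 2, 0 and 5 in LNCaP-AI (adjusted p = 2.48e-06). NKX2-1, a lung and forebrain factor gene, had 1161, 875 and 1185 counts against 1, 1 and 0 (adjusted p = 2.08e-06). ENO2, neuron-specific enolase, had 500, 439 and 508 counts against 465, 379 and 613 (log2 fold change 1.08, SE 0.0930, adjusted p = 7.07e-05). EZH2, a Polycomb methyltransferase gene, and AURKA, a mitotic kinase gene, were higher in DU-145 by 0.97 (adjusted p = 6.86e-05) and 0.80 (adjusted p = 0.00206). In LNCaP-AI the higher genes were SYP, ONECUT2, DLL3 and SEZ6. SYP, the synaptophysin gene, had 11, 11 and 17 counts in DU-145 and 47, 64 and 99 in LNCaP-AI (log2 fold change -1.34, SE 0.308, adjusted p = 0.00679). ONECUT2, a homeobox factor gene, had 19, 15 and 28 counts against 404, 709 and 1091 (log2 fold change -4.06, SE 0.366, adjusted p = 8.44e-05). DLL3, an inhibitory Notch ligand gene, had 41, 34 and 31 counts against 359, 184 and 314 (log2 fold change -1.93, SE 0.248, adjusted p = 0.000432). SEZ6 had 1, 1 and 3 counts against 17, 11 and 17 (log2 fold change -2.05, adjusted p = 0.00672), a call lost with DESeq2 (adjusted p = 0.064). PEG10, a retrotransposon-derived gene, had 2931, 2206 and 2608 counts against 40, 3663 and 5266 and did not pass (log2 fold change 0.88, adjusted p = 0.514). PEG10 passed at 0.30 without LNCaP-AI 1 (adjusted p = 0.00464) and at 7.02 against LNCaP-AI 1 alone (adjusted p = 1.74e-13).

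Other genes that the study names for pluripotency, chromatin and cell cycle divided as well. MYC had 1201, 1001 and 1113 counts in DU-145 and 6010, 5311 and 8676 in LNCaP-AI (log2 fold change -1.50, SE 0.0889, adjusted p = 1.65e-05). KLF4, a reprogramming factor gene, was lower in DU-145 (log2 fold change -1.0, SE 0.258, adjusted p = 0.0111), a call lost without DU-145 2 (adjusted p = 0.0512). BMI1, a Polycomb ring gene, was higher in DU-145 by 1.88 (SE 0.232, adjusted p = 0.000354). DNMT3B, a DNA methyltransferase gene, was lower (log2 fold change -1.18, SE 0.201, adjusted p = 0.00165), as was CDK4 (-1.07, SE 0.101, adjusted p = 0.000102).

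HOX genes, whose order in each cluster follows the body axis, were higher in DU-145 in 13 of 28 tested (46.4%). In LNCaP-AI 10 were higher (35.7%), and the median log2 fold change was 0.83. HOXD13 and HOXC12, at the posterior end of their clusters, had 0 counts in each DU-145 library and 687, 378 and 576 and 185, 177 and 445 counts in LNCaP-AI. HOXC6, a more anterior gene, was also higher in LNCaP-AI (log2 fold change -1.83, SE 0.198, adjusted p = 0.00019). In DU-145 the higher genes included HOXB6, HOXB8 and HOXD9, with HOXB8 at 63, 43 and 58 counts against 4, 2 and 1.

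Genes detected in 1 line only numbered 217 in DU-145 and 931 in LNCaP-AI. The deeper LNCaP-AI libraries reach 10 counts at a lower level than the DU-145 libraries do. The 6 most abundant in DU-145 were ANKRD1, NKX2-1, CAVIN2, SLFN11, SLFN13 and PPP1R3C. ANKRD1, a cardiac and YAP-responsive ankyrin repeat gene, had 3743, 3433 and 3765 counts in DU-145 and 0, 1 and 2 in LNCaP-AI. SLFN11, a helicase-like gene that blocks stressed replication forks, had 924, 698 and 938 counts against 0, 0 and 1. SLFN13, a tRNA-cleaving relative, had 606, 434 and 648 counts against 0, at least 317-fold higher. In LNCaP-AI the most abundant included, beside FOLH1 and HOXB13, NCAM2, SELENBP1 and STXBP5L. NCAM2, a neural adhesion molecule gene, had 8231, 4927 and 6154 counts against 0, 1 and 0. The rule that picked these genes required at least 10 counts in every LNCaP-AI library.

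Among genes at least 4-fold apart, the most abundant in DU-145 were TXNRD1, NQO1, ANXA2, FTL, MYOF, PLOD2, AXL and CAVIN1. ANXA2, a membrane-binding annexin gene, had 17066, 15938 and 16994 counts in DU-145 and 10, 2801 and 4532 in LNCaP-AI (log2 fold change 3.89, SE 1.38, adjusted p = 0.0403). The ANXA2 call was lost without any 1 library other than LNCaP-AI 1 (adjusted p from 0.0819 to 0.094) and was stronger without LNCaP-AI 1 (3.31, adjusted p = 2.03e-19). PLOD2, a collagen lysyl hydroxylase gene, had 15721, 10494 and 15570 counts against 15, 2062 and 2838, and MYOF, a membrane repair gene, had 14580, 11530 and 12666 against 37, 2121 and 3153. Their adjusted p-values were 0.0241 and 0.0195, and rose to between 0.0567 and 0.065 for PLOD2 without any 1 library other than LNCaP-AI 1, and to 0.0528 and 0.0512 for MYOF without DU-145 2 and without LNCaP-AI 3. FTL, the ferritin light chain gene, had 16235, 13435 and 14445 counts against 2409, 4770 and 8785 (log2 fold change 2.58, SE 0.356, adjusted p = 0.000596). CAVIN1, a coat component gene of caveolae, had 13804, 9590 and 12205 counts against 882, 1882 and 3618 (log2 fold change 3.59, SE 0.406, adjusted p = 0.000231).

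In LNCaP-AI the corresponding genes included MME, NFIX, FASN, FADS2, PRKACB, ATP2B1 and LIMCH1. MME, which encodes the peptidase neprilysin (CD10), had 35, 15 and 33 counts in DU-145 and 48214, 29070 and 38908 in LNCaP-AI (log2 fold change -9.41, SE 0.333, adjusted p = 3.26e-06). NFIX, a nuclear factor I gene, had 485, 308 and 333 counts against 44960, 22446 and 39663 (log2 fold change -5.50, SE 0.259, adjusted p = 7.71e-06). PRKACB, a catalytic subunit gene of protein kinase A, had 480, 316 and 446 counts against 28485, 16066 and 22515 (log2 fold change -4.71, SE 0.223, adjusted p = 7.9e-06). FADS2, a fatty acid desaturase gene, had 2543, 1922 and 2179 counts against 30299, 15306 and 25593 (log2 fold change -2.35, SE 0.201, adjusted p = 6.71e-05). LNCaP-AI 1 was not low for these 7 genes, and their lowest count in any LNCaP-AI library was 14126, of LIMCH1 in LNCaP-AI 2.

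The line difference by chromosome was taken over protein-coding genes. The median log2 fold change was -0.02 over all 13059 genes. On the X chromosome it was -0.80, and 305 of 462 genes (66.0%) were higher in LNCaP-AI and 60 in DU-145, against 34.4% and 32.2% of genes over all chromosomes. On chromosome 21 it was 0.72, with 76 of 118 genes (64.4%) higher in DU-145, and on chromosome 14 it was 0.61, with 247 of 427 (57.8%). Chromosome 18 followed at 0.46 and chromosome 5 at 0.31, and chromosome 22 was the lowest autosome at -0.33. Without LNCaP-AI 1 these medians were -0.83 on X, 0.71 on 21 and 0.56 on 14. DNA copy number was not measured in these data.

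**Figure D4:**
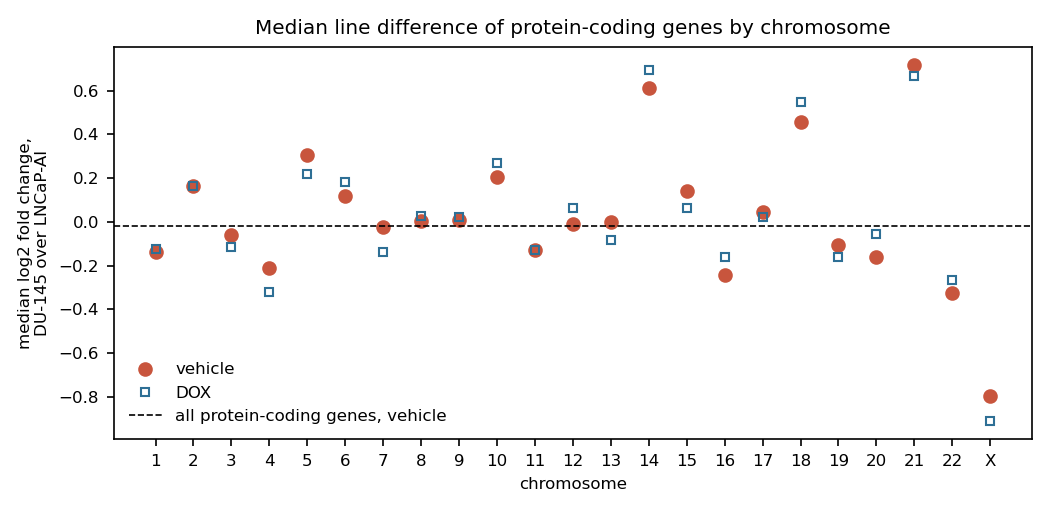
Median log2 fold change of DU-145 over LNCaP-AI of the tested protein-coding genes (vertical axis) on each chromosome (horizontal axis), for vehicle (red circles) and DOX libraries (blue squares), with the vehicle median over all chromosomes as a dashed line. Chromosomes 21, 14 and 18 lie highest and X lies lowest in both sets of libraries.

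The same contrast was fitted in the 6 DOX libraries, which are separate libraries of the same lines after induction of the MUC1 shRNA. Of the 10180 genes called with vehicle, 9824 were tested with DOX, 9478 had the same direction and 8626 were called in that direction, while 83 were called in the opposite direction. KLK3 and FOLH1 had 0 counts in DU-145 in these libraries as well. VIM differed by 3.43 with DOX (adjusted p = 2.04e-06), CDH1 by -3.41 (adjusted p = 4.5e-06) and NQO1 by 2.29 (adjusted p = 2.12e-06). The interferon-induced genes IFIT1 and IFIT2 differed by 0.37 (adjusted p = 0.135) and -0.23 (adjusted p = 0.283) with DOX and did not pass, against 3.22 and 2.74 with vehicle. The line difference of IFIT1 was larger with vehicle by 2.82 and that of IFIT2 by 2.94 on the log2 scale, each past the test of the difference itself. Of the genes detected in 1 line only with vehicle, 141 of 217 in DU-145 and 676 of 931 in LNCaP-AI met the same rule with DOX.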

How the data were processed

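RNA-seq libraries were made by the authors with a stranded mRNA kit. Per the labels' processing notes, the submitters used CASAVA 1.8.2, STAR 2.7.0, GRCh38.p7 and DESeq2 1.24.0. The counter, its annotation and its strand setting are not given in the sources used here, so overlapping genes and near-identical copies are uncertain. The authors deposited whole-number counts per gene, not normalized. Gene positions are from GENCODE v44 (GRCh38).

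Vehicle libraries were grouped by their titles. Genes with 10 or more counts in 3 or more of the 6 libraries were tested with edgeR 4.0.16 (TMM normalization, quasi-likelihood F test, Benjamini-Hochberg adjustment, threshold 0.05) in R 4.3.3. CPM used TMM library sizes, and the SE is the absolute log2 fold change divided by the square root of F. A gene counted as detected in 1 line only had at most 3 counts in each library of the other line and at least 10 in each of its own. In simulated counts with 200 genes changed by a log2 fold change of 2, 86% were called with 14 false calls among 15109 genes. The simulation gave both lines the same spread and changed far fewer genes than were called here. Its figures therefore do not give the error of the actual comparison. Alternatives were DESeq2 1.42.0, limma 3.58.1 (voom with sample weights), other normalizations and filters, all 12 libraries in 1 fit, a replicate block and each library left out.

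The comparison and the lists were chosen with earlier results of these data known. Named genes were those the study names, the 8 most abundant genes per line at least 4-fold apart without overlap, the 6 most abundant detected in 1 line only, the 4 list members per direction with the smallest p, members that define a list in textbook terms, and the genes of known lesions. FOXA1, STEAP2, EHF, CAV1, CD44, KRT81, AREG, CXCL8, IFIT1 and CDH2 were chosen after their values were seen. Some genes that the rule names are not reported here, but all stay in the counts.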

Additional observations from a re-analysis of the deposited data

Results flagged for a closer look

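The difference between the lines differed between the vehicle and DOX libraries, by the interaction term of edgeR's fit of all 12 libraries, for 1625 of 15628 genes and for 31 of the 129 tested genes named above. Values are the log2 difference between lines with vehicle minus that with DOX. The DOX libraries of LNCaP-AI were divided as the vehicle libraries were, with DOX 1 carrying the transcripts that DOX 2 and 3 lacked, and the part of this division in these values was not tested.

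MUC1, the target of the shRNA, had an interaction of 1.95 (adjusted p = 0.0217). Its line difference was 1.87 with vehicle, and with DOX it was under the count minimum at 3 counts in each DU-145 library and 8, 6 and 3 counts in LNCaP-AI. Among androgen response genes, the values were 1.19 for STEAP2, 1.30 for HERC3 and 0.766 for ABCC4. Epithelial genes had negative values, at -1.10 for CDH1, -1.30 for ESRP1, -1.62 for CLDN7, -1.38 for AP1M2 and -1.81 for EPCAM, so the lines were closer with DOX for the first 4 of these. The value was 1.54 for VIM and 0.617 for COL6A1. It was -1.32 for ITGB2 and -1.22 for HBEGF.

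The interferon-induced genes had the values 2.82 for IFIT1, 2.94 for IFIT2 and 1.94 for IFIT3. NRF2 pathway genes had 1.08 for NQO1, 0.948 for TXNRD1, 1.03 for GCLC, 0.539 for NFE2L2, 1.5 for KEAP1 and -1.76 for GPX3. Genes of stress response had 3.05 for TP53INP1, 1.65 for TP53I3 and 1.49 for CDKN1A. Genes of replication had -0.798 for MCM7 and -0.833 for MCM2. The remaining values were -0.787 for EZH2, -0.621 for MYC, -1.94 for KLF4 and 0.95 for LIMCH1. The direction of the line difference was opposite with DOX for 3 of these genes, EPCAM (0.95 with DOX), KLF4 (0.91) and IFIT2 (-0.23).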

How the results depend on the processing

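Leaving out each library in turn gave 4011 to 5494 genes higher in DU-145 and 4705 to 6086 higher in LNCaP-AI. Genes detected in 1 line only then numbered 223 to 271 and 947 to 1221, against 217 and 931 with all libraries. With fewer libraries to meet that rule, as also with LNCaP-AI 1 alone, these numbers can only stay or rise. They are therefore no check of it. A test against a 2-fold change called 1647 and 2389 genes. LNCaP-AI 1 as the only LNCaP-AI library, a choice made after seeing the data and a fit in which that library is assumed to vary like the others, left 648 genes detected in DU-145 only. Upper quartile normalization and no filter moved the median log2 fold change of all genes to -0.155 and -0.429, and the share of calls higher in DU-145 from 46.3% to 41.2% and 38.7%.

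Libraries of the same replicate number showed no shared deviation from their line means (correlations of deviations 0.00985, 0.0235 and -0.0118). The deviations within LNCaP-AI came largely from LNCaP-AI 1, so these correlations could miss a pairing. The fit with the replicate block called 4381 and 4997 genes and ended 5 of the calls among 129 named genes. Signs changed against LNCaP-AI 1 alone for KRT81 (2.80), AREG (7.85), CXCL1 (8.05), GSTP1 (9.0) and BAX (0.295). GSTP1 was 0.881 with the block (adjusted p = 0.703). Without each library in turn it ranged from -0.671 to 0.599 (0.105 without LNCaP-AI 2), and BAX from -0.219 to 0.0978, and the positive values did not pass. The median of the E2F list was 0.033 with voom and -0.0673 to 0.0404 without each library (0.00604 without DU-145 2). The cause was not tested. The remaining alternatives, DESeq2 and its size factors, 1 CPM and all 12 libraries, kept 124 to 129 of the 129 named genes on their side of the threshold, with 1 not tested at 1 CPM.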
